A study of Mus musculus with 6 samples.

Results

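The genes described here encode the proteins of the cytosolic ribosome in mouse femur. They were taken from a gene table of 22824 rows by symbol: protein-coding genes named Rpl or Rps with a number, Rplp0, Rplp1 and Rplp2 of the stalk, and Rpsa, with pseudogenes left out. The rule gave 82 genes, 50 of the large subunit and 32 of the small subunit. Of these, 81 passed the filter for testing, which kept genes at 1 FPKM or more in at least 3 libraries. FPKM counts sequenced fragments per kilobase of transcript, relative to the fragments mapped in the library, and so allows levels of genes of different length to be compared. The remaining gene, Rpl10l, a copy of Rpl10 made by reverse transcription, was listed at 0 in all 6 libraries. Rpl13 was not analysed here.

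The study addressed what Wnt7b, a secreted signalling protein of the Wnt family, does in bone. OE mice carried Cre under a 9.6 kb Dmp1 regulatory sequence, active in osteocytes and mature osteoblasts, together with an R26-Wnt7b allele that Cre switches on, and were homozygous. Ctrl mice were littermates with R26-Wnt7b and no Cre, so the allele itself was shared by both groups. All were C57BL/6, and their ages are not in the labels. Paired-end RNA sequencing of total RNA gave 3 OE and 3 Ctrl libraries from femurs described as cleared of marrow and cartilage. Nothing ties the libraries to separate animals, so a p-value here reflects the spread among the libraries alone, part of which can be technical.

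A ribosome joins a small subunit, which reads the messenger RNA, to a large subunit, which forms the peptide bond. Each of its proteins is normally present once per ribosome, apart from the stalk proteins, and their messenger RNAs are among the most abundant in growing cells. Most of these messenger RNAs start with a C followed by a run of pyrimidines, the terminal oligopyrimidine tract, through which mTORC1 signalling controls their translation. In bone, osteoblasts make large amounts of collagen, and marrow precursors divide quickly, so both cell types hold many ribosomes.

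The targeted gene did not follow the labels in every library. Wnt7b was at 2.49, 0.661 and 0.295 FPKM in OE 1, 2 and 3, at 0.909 in the library labelled Ctrl 1, at 0.00833 in Ctrl 2, and was listed at 0 in Ctrl 3 (exact two-sided permutation test, p = 0.3). The library labelled Ctrl 1 was thus above OE 2 and OE 3. Some results are given with and without it, and the others are given with all 6 libraries. Below, values are listed as OE 1, OE 2 and OE 3, then as the library labelled Ctrl 1, Ctrl 2 and Ctrl 3. The 6 osteoblast markers above 0 in every library summed to 5616, 4926 and 3108 FPKM for OE and to 4547, 399 and 326 FPKM for Ctrl, so the library labelled Ctrl 1 lay within the OE range. Col1a1 and Col1a2 were left out of that sum because the library labelled Ctrl 1 and OE 1 list them at 0. Despite the label, neutrophil marker sums were 55920 to 156879 FPKM in OE and 96569 to 133235 in Ctrl, and cartilage sums were 250.5 to 514 and 15.2 to 323 FPKM. In such bulk samples, fewer cells of a type and less RNA per cell cannot be told apart. FPKM totals ran from 596413 to 775942, and relative depth, read from the steps between low values, from 1 to 1.18.

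The start of the messenger RNA is shown first because it is the sequence feature these genes are known for. Each line gives 30 bases, 10 before the annotated start and 20 from it, read from RefSeq on GRCm38.p6 and written 5′ to 3′ on the gene's strand. Capitals mark a C followed by at least 4 pyrimidines that begins at or near the start. The first 4 genes include those with the largest positive and negative differences between OE and Ctrl among the genes at 100 FPKM or more in every library. Rps6 is the substrate of the mTORC1-driven S6 kinase, Rps27 is the parent of a paralogue pair, and Rps28 and Rps3 have no such run in the window. Rps21 has another annotated start, not shown, without a run. The starts were not checked against reads, so a missing run does not show that the messenger RNA lacks the tract.
Rpl38, chr11:114668570-114668599, plus strand: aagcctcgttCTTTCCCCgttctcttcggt
Rps21, chr2:180257369-180257398, plus strand: aggacccgccCTCCTgcccaatagtgctgc
Rpl28, chr7:4792955-4792984, plus strand: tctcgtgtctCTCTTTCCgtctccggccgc
Rps9, chr7:3704031-3704060, plus strand: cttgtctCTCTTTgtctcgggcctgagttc
Rps6, chr4:86857348-86857377, minus strand: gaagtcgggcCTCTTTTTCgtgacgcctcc
Rps27, chr3:90213629-90213658, minus strand: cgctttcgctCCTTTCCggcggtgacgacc
Rps28, chr17:33824543-33824572, minus strand: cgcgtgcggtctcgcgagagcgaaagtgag
Rps3, chr7:99483690-99483719, minus strand: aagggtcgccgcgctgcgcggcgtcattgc

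Of the 82 genes, 62 had an entry in the RefSeq table of promoters. On the gene's strand, a C followed by at least 4 pyrimidines lay exactly on an annotated start in 13 of the 62 (21.0%), against 3.01% of all 27025 genes of the table. Within 10 bases of the start it was found in 39 of the 62 (62.9%) and in 34.4% of all genes. In the window from 250 bases before to 50 after the start, on both strands, CCGGAAG, the core of ETS-family sites, was in 26 of the 62 (41.9%, all genes 9.93%). AAGATGGC, the core of YY1 sites, was in 6 (9.68%, all genes 3.19%), and GGGCGG, the GC box, in 38 (61.3%, all genes 38.2%). These matches are descriptions of the letters and not of factor binding. Rpl38 and Rpl28, which lie at opposite ends of the comparison given further on, each carry a run of 8 pyrimidines on the start base.

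Ribosomal protein transcripts were a large and similar part of every library. Their share of all FPKM was 10.5, 12.4 and 13.5% over the OE libraries and 11.8, 12.2 and 10.7% over the Ctrl libraries. The groups overlapped, at 12.1% ± 1.54 in OE and 11.6% ± 0.796 in Ctrl (SD, n = 3 each). Small-subunit genes gave 44.6 to 45.4% of that amount in each library, so the balance of the subunits moved by less than 1 percentage point. The plot of shares shows this for both subunits.

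**Figure D1:**
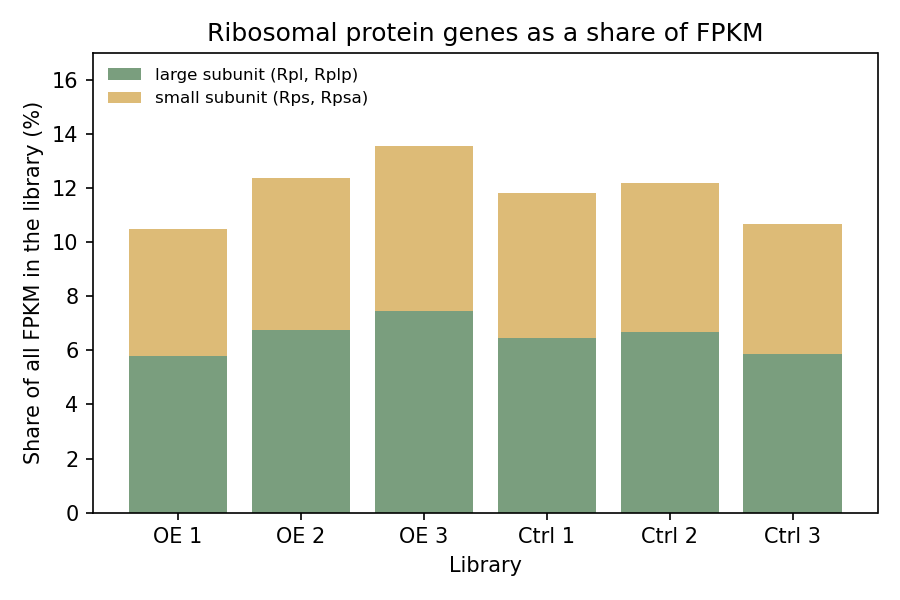
Share of all FPKM (percent, y axis) from the genes of the large and small ribosomal subunit in each of the 6 libraries (x axis). The totals run from 10.5 to 13.5%, and the OE and Ctrl libraries overlap.

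Within the set, 78 genes were at 100 FPKM or more in every library, and they are called the core genes below. The exceptions were Rpl10l, Rpl3l, Rpl39l and Rpl7l1, all copies of another member. Mean FPKM over the 6 libraries ran from 152 for Rps20 to 3016 for Rpl41, a 19.8-fold range around a median of 1011, and 68 of the 78 lay within 2-fold of that median. The order of the core genes was nearly the same in all libraries, with Spearman correlations of 0.90 to 0.99 between pairs of libraries across the 78 genes, which are not independent replicates. Of the 100 genes with the highest mean FPKM, 40 were members.

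Rpl41, whose product is the smallest protein of the ribosome, was the highest, at 2528, 3919 and 3288 FPKM over the OE libraries and at 3149, 3132 and 2083 over the Ctrl libraries. Rplp1, an acidic protein of the stalk that recruits translation factors, was at 1871, 2859 and 2522 FPKM over the OE libraries and at 2438, 2431 and 1543 over the Ctrl libraries. Rps12 of the small-subunit beak held 1835, 2801 and 2313 FPKM over the OE libraries and 2252, 2343 and 1597 over the Ctrl libraries. The ranges of Rplp1 and Rps12 overlapped, and so did OE and Ctrl for all 3 genes. In each gene OE 2 was the highest OE library and Ctrl 3 the lowest of all libraries.

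At the low end, Rps20 was at 120, 186 and 158 FPKM over the OE libraries and at 155, 172 and 122 over the Ctrl libraries. Rpl12, part of the base of the stalk, was another of the low single-copy genes, with 349, 524 and 479 FPKM over the OE libraries and 476, 570 and 393 over the Ctrl libraries. Rpl27a, Rpl15 and Rpl21 were close to it, between 308 and 603 FPKM in any library. Rpl12, Rpl27a, Rpl15 and Rpl21 could not be ordered, since their ranges over libraries overlapped. Reads from these genes can be shared with their many processed pseudogenes, and how such reads were counted is not given, so single levels are uncertain.

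**Figure D2:**
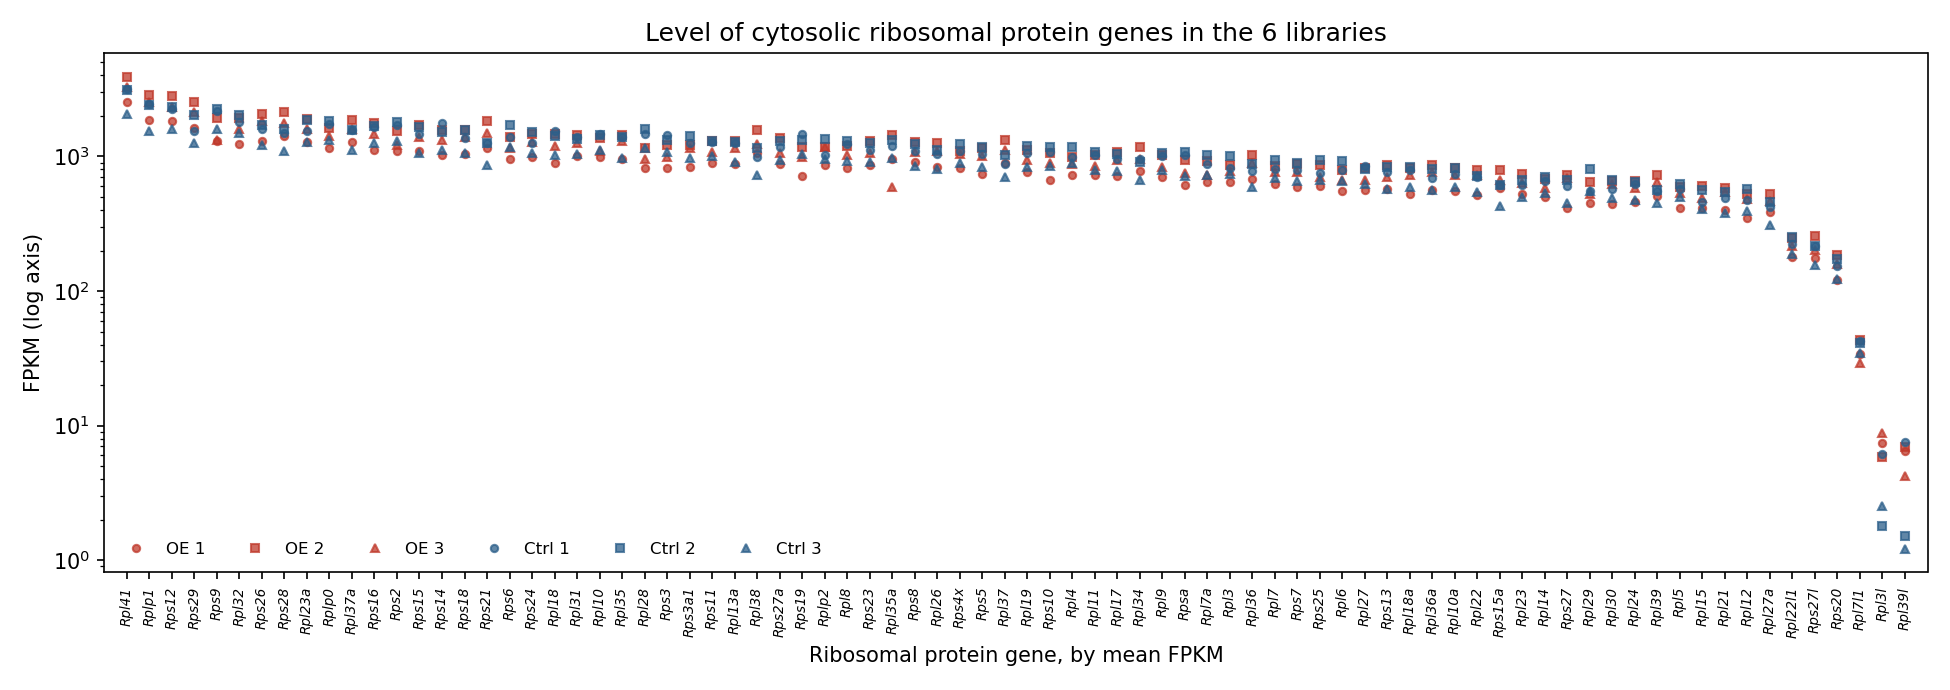
FPKM (y axis, log scale) of the tested ribosomal protein genes (x axis, ordered by mean level), with a point for each OE (red) and each Ctrl (blue) library. The core genes lie between 152 and 3016 FPKM on average, and the points of the OE and Ctrl libraries overlap in nearly all of them.

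No ribosomal protein gene passed the test between OE and Ctrl. In limma on log2(FPKM + 1) with Benjamini-Hochberg adjustment, 0 of 12177 genes were called (0.00%), and the smallest adjusted p, for members and for all genes, was 0.554. Before adjustment, 999 genes (8.20%) had p under 0.05, and Rpl3l was the 1 member among them. Of the 81 tested members, 31 differences were positive and 50 negative, with a median of −0.04 on the log2 scale beside −0.04 over all genes tested. The sign of both small medians depended on scaling. With trimmed-mean scaling they were 0.02 for members and 0.01 for all genes. When marrow and muscle genes were left out of the scaling, they were 0.05 and 0.05. In FPKM, no member had all OE libraries above all Ctrl libraries (all genes 4.59%), and 1, Rpl28, had all below (all genes 8.97%, both directions together 13.6%). Standard errors of the core genes were 0.20 to 0.35, while their differences lay between −0.53 and 0.43.

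None of the members named for a special role passed the test. Rps6 was at 953, 1396 and 1163 FPKM over the OE libraries and at 1392, 1706 and 1181 over the Ctrl libraries, a log2 difference of −0.29 (SE 0.26, limma adjusted p = 0.680). Rpl5 and Rpl11, which bind Mdm2 when ribosome assembly fails, differed by −0.15 (SE 0.21) and −0.15 (SE 0.23). Rpsa, also known as the laminin receptor, held 613, 941 and 748 FPKM over the OE libraries and 1029, 1082 and 718 over the Ctrl libraries (−0.30, SE 0.26, limma adjusted p = 0.679). OE and Ctrl overlapped in each of these genes. In the stalk, Rplp0 differed by −0.23 (SE 0.25), Rplp1 by 0.19 (SE 0.31) and Rplp2 by −0.05 (SE 0.25), with adjusted p-values of 0.747 or more in limma.

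The largest differences among the core genes had opposite signs. Rpl38, whose loss in mice alters the patterning of the axial skeleton, was at 1066, 1570 and 1230 FPKM over the OE libraries and at 992, 1164 and 724 over the Ctrl libraries (log2 difference 0.43, SE 0.27, limma adjusted p = 0.581). Rps21, a small-subunit protein, held 1148, 1819 and 1482 FPKM over the OE libraries and 1249, 1266 and 859 over the Ctrl libraries (0.40, SE 0.28, limma adjusted p = 0.608). In both genes the OE libraries were mostly higher, but the lowest OE library lay below at least 1 Ctrl library.

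Rpl28, a large-subunit protein, was at 815, 1151 and 952 FPKM over the OE libraries and at 1470, 1593 and 1152 over the Ctrl libraries (−0.53, SE 0.24, limma adjusted p = 0.554). The highest OE library was just below the lowest Ctrl library. Rps19, mutated in Diamond-Blackfan anaemia, held 713, 1168 and 993 FPKM over the OE libraries and 1466, 1328 and 1037 over the Ctrl libraries (−0.43, SE 0.27, limma adjusted p = 0.582). Rps9 held 1292, 1914 and 1334 FPKM over the OE libraries and 2194, 2248 and 1613 over the Ctrl libraries (−0.42, SE 0.27). Rps3, which forms part of the mRNA entry site, held 828, 1226 and 990 FPKM over the OE libraries and 1451, 1323 and 1075 over the Ctrl libraries (−0.35, SE 0.24). In Rps19, Rps9 and Rps3, OE 2 overlapped the Ctrl range and the other OE libraries lay below it.

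Much of the spread in these values was shared by the whole set. The median of the 81 tested members was at 771, 1151 and 951 FPKM in OE 1, 2 and 3, and at 1029, 1171 and 829 FPKM in Ctrl. Each gene was therefore also expressed relative to the median core gene of its own library, as a log2 ratio. This scale was added after the FPKM values had been seen, and the counts on it are given as a description. It lowered the median within-group SD of a core gene from 0.274 to 0.0648 on the log2 scale. A relative level shows a change in the makeup of the set and cannot show that any single gene did not change.

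On the relative scale, 42 of the 78 core genes (53.8%) did not overlap between the groups, 26 with all OE libraries above all Ctrl libraries and 16 with all below. Of all genes tested, on the same scale, 6.49% did not overlap, with 2.25% above and 4.24% below. That share is not a like background, because the reference is the core genes' own median. It removes spread that the core genes share and need not do so for other genes. In FPKM the share of all genes was 13.6%. A second background was closer in level: of 473 other genes at 100 FPKM or more in every library, taken relative to their own median, 26.0% did not overlap. Limma was also run on log2(FPKM + 1) centred on the median of the 81 tested members, a slightly different reference. It called 0 of 12177 genes (0.00%), and 533 genes were at an unadjusted p under 0.05 (4.38%). The library labelled Ctrl 1, which resembled OE in Wnt7b, lay with the other Ctrl libraries. Along the first principal component of the relative levels, which held 69.1% of the variance, OE 1, 2 and 3 were at 0.69, 0.80 and 1.13 and the 3 Ctrl libraries at −0.80, −0.75 and −1.07. Leaving out 1 library at a time gave 42 to 51 such genes (53.8 to 65.4%), beside 10.3 to 20.8% of all genes and 28.5 to 44.4% of the 473 other genes. Dropping the library labelled Ctrl 1 together with OE 3 gave 60 (76.9%), beside 29.3% and 62.2%.

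**Figure D3:**
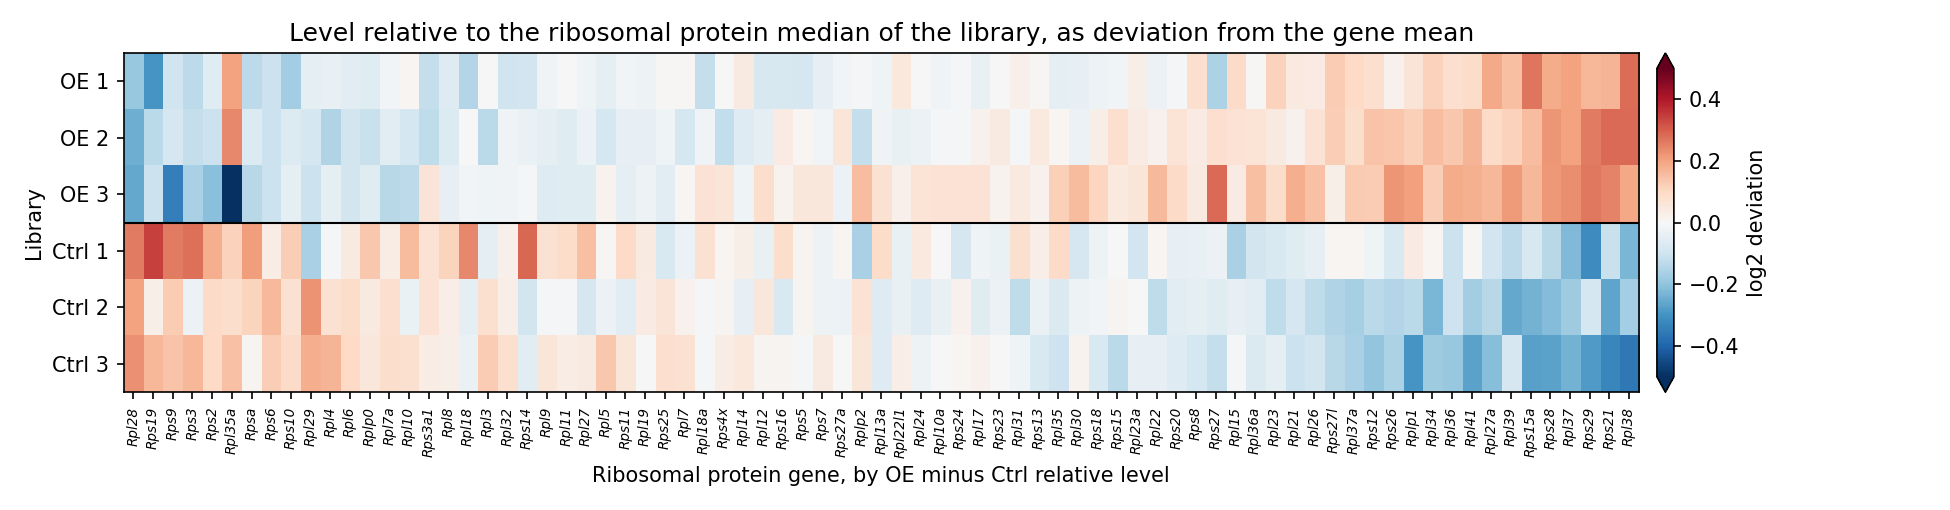
Log2 level relative to the median core gene of the same library, shown for the core genes (columns, ordered by the difference between OE and Ctrl) and each of the 6 libraries (rows) as the deviation from the mean of the gene, red above and blue below. Rpl38, Rps21 and Rps29 at the right are higher in all OE libraries than in all Ctrl libraries, and Rpl28, Rps19 and Rps9 at the left are lower.

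The genes that were relatively higher in OE included Rpl38, Rps21, Rps29, Rpl37, Rps28 and Rps15a. Rpl38 was at 0.43, 0.43 and 0.34 in OE and at −0.08, −0.02 and −0.21 in Ctrl. Rps29, a zinc-binding protein of the small-subunit head, was at 1.03, 1.13 and 1.13 in OE and 0.55, 0.78 and 0.58 in Ctrl. Rpl37, a zinc-binding protein of the large subunit, was at 0.18, 0.18 and 0.21 in OE and −0.25, −0.20 and −0.26 in Ctrl. In each of these genes the gap between the groups was wider than the spread within either group. Rps28 stood at 0.83, 0.87 and 0.86 in OE and 0.51, 0.43 and 0.38 in Ctrl. Rps15a stood at −0.44, −0.56 and −0.54 in OE and −0.79, −0.94 and −0.98 in Ctrl. Rps29, Rpl37, Rps28 and Rps15a were chosen for naming on these values.

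The genes that were relatively lower in OE included Rpl28, Rps19, Rps9, Rps3, Rps2, Rpsa and Rps6. Rpl28 was at 0.04, −0.02 and −0.03 in OE and at 0.49, 0.43 and 0.46 in Ctrl. Rps9 was at 0.70, 0.72 and 0.46 in OE and 1.06, 0.93 and 0.94 in Ctrl. Rps6 was at 0.26 in all 3 OE libraries and at 0.41, 0.53 and 0.49 in Ctrl. Within OE, OE 3 stood apart in Rps9 and in Rpl35a, which was at 0.27, 0.31 and −0.72 in OE 1, 2 and 3 and at 0.16 to 0.22 in Ctrl.

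A direct ratio of 2 genes needs no scaling between libraries. The ratio of Rpl38 to Rpl28 was 1.31, 1.36 and 1.29 in OE and 0.675, 0.731 and 0.629 in Ctrl. That of Rps21 to Rps19 was 1.61, 1.56 and 1.49 in OE and 0.852, 0.953 and 0.828 in Ctrl. Both ratios were above 1 in every OE library and below 1 in every Ctrl library. These pairs were chosen for their differences, so the ratios are a description.

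Neither subunit carried the pattern alone. Among 46 large-subunit core genes, 15 were relatively higher and 9 relatively lower without overlap. Among the 32 small-subunit genes, 11 were higher and 7 lower. The relatively higher and lower genes differed in the length of their coding sequence, taken as the longest annotated one, which the choice of members did not use. The 26 core genes with the shortest coding sequences, 138 to 399 bases, held 16 of the relatively higher genes and none of the lower ones. The middle 26, of 405 to 576 bases, held 8 higher and 4 lower, and the longest 26, of 582 to 1257 bases, held 2 higher and 12 lower. Median log2 differences in log2(FPKM + 1) were 0.13, −0.05 and −0.18 in these 3 classes.

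Across the 78 genes, the difference between OE and Ctrl fell with coding length at a Spearman correlation of −0.71, and at −0.74 to −0.69 with any 1 library left out. The genes share libraries and are not independent, so no p is given. The correlation with transcript length was −0.49, with exon number −0.52, with GC content −0.13 and with mean level −0.06. Over all 11716 tested genes with a coding length the correlation with coding length was 0.08, and over 760 other genes averaging 100 FPKM or more it was −0.30. FPKM divides by a transcript length chosen in the authors' processing, and the sources used here do not give the fragment size of each library. The part of either in this relation was not tested.

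The relation was present library by library. Relative level correlated with coding length at −0.54, −0.76 and −0.65 in OE 1, 2 and 3 and at 0.46, 0.64 and 0.64 in Ctrl, each taken as the deviation from the gene's mean over the 6 libraries. Those deviations sum to 0 for a gene, so the signs of the 2 groups are tied to each other. The same measure over 466 other genes at 100 FPKM or more in every library gave 0.12, −0.44 and −0.23 in OE and −0.01, 0.11 and 0.49 in Ctrl. In those other genes the 2 groups overlapped. The marker sums of neutrophils, erythroid cells, B-cell precursors and proliferation also overlapped between OE and Ctrl. Those of muscle, cartilage, osteocytes and the 6 osteoblast markers above 0 in every library overlapped only through the library labelled Ctrl 1. Without it, all OE libraries were above Ctrl 2 and Ctrl 3 in these sums. Muscle was at 1328 to 1708 FPKM in OE against 226 and 318, and osteocytes at 183 to 589 against 47.8 and 56.2. The part of such differences in the relation with length was not tested. In other sums OE 3 stood apart, with an erythroid sum of 37977 FPKM against 1110 to 7992 in the other 5 libraries and a B-cell precursor sum of 492 against 53.2 to 115.

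**Figure D4:**
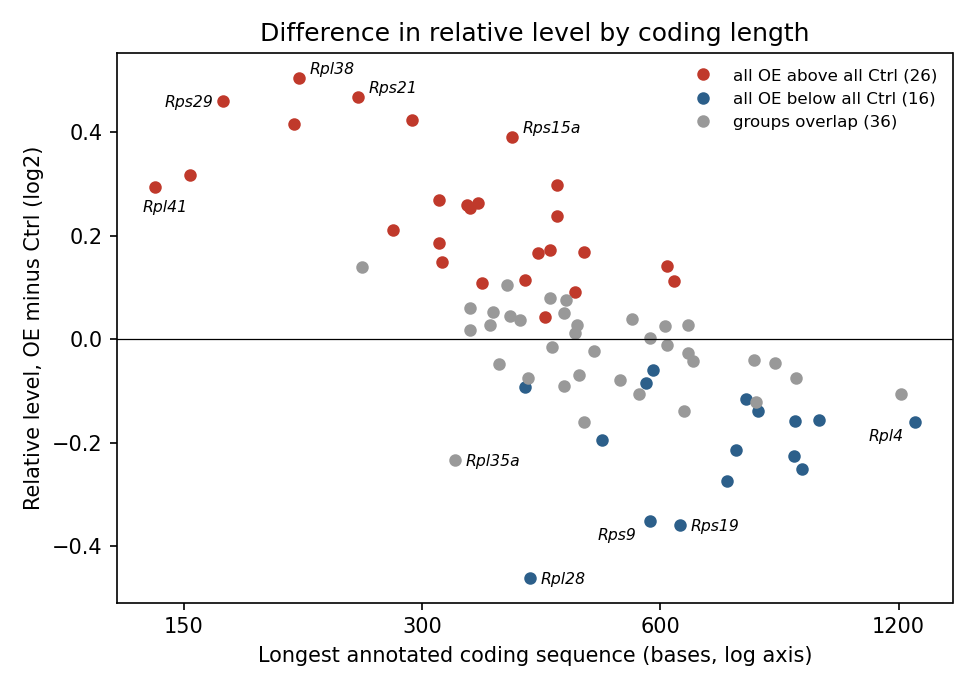
Log2 difference between OE and Ctrl in relative level (y axis) against coding length in bases (x axis, log scale) for the 78 core genes, each a point coloured by whether the groups overlap. Short genes such as Rpl38 and Rps29 lie above 0 and long ones mostly below, with a Spearman correlation of −0.71.

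Paralogue use was compared in pairs, as the share of the copy in the FPKM of copy and parent together. Of the 6 pairs compared by exact two-sided permutation tests, none passed, and the adjusted p-values were 0.84 to 0.9. With 3 libraries against 3, the smallest p an exact permutation test can give is 0.1. A pair with similar sequences can exchange reads. Identity of the coding sequence with the parent was 85.0% for Rpl39l and 73.2% for Rpl3l, and 68.2, 61.0 and 48.3% for Rpl22l1, Rps27l and Rpl7l1.

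Rps27l and Rpl22l1 had the largest shares among the 6 pairs. Rps27l, a target of p53, made up 29.7, 26.2 and 22.5% of its pair with Rps27 in OE and 26.2, 24.6 and 25.4% in Ctrl (exact p = 0.7). That pair leaves out Rps27rt, a retrotransposed copy of Rps27, which was at 602 to 1178 FPKM and above Rps27 in every library. Counting Rps27rt with Rps27 would make the share of Rps27l smaller. Rpl22l1, which is known to be held down by Rpl22 in other cells, made up 25.7, 23.9 and 22.9% in OE and 24.1, 25.9 and 25.6% in Ctrl (exact p = 0.3). The groups overlapped in both pairs, with mean differences of 0.735 and −1.0 percentage points. Rpl7l1, a factor of large-subunit assembly, made up 5.19, 4.83 and 3.68% in OE and 5.04, 4.17 and 4.81% in Ctrl of its pair with Rpl7 (exact p = 0.9). Rps4l, annotated as a pseudogene and not a member, was at 0.834 to 1.45% of its pair with Rps4x in all libraries.

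Rpl3l, the form of Rpl3 found in skeletal and heart muscle, was at 7.41, 5.85 and 8.74 FPKM over the OE libraries and at 6.14, 1.81 and 2.53 over the Ctrl libraries. This was 1.14, 0.676 and 1.12% of its pair with Rpl3 in OE and 0.740, 0.178 and 0.340% in Ctrl (exact p = 0.2). Ctrl 2 and Ctrl 3 were below all OE libraries, and the library labelled Ctrl 1 was within the OE range. With all libraries the log2 difference was 1.0 (SE 0.35, limma adjusted p = 0.554). Summed over 7 muscle markers, the same libraries held 1649, 1328 and 1708 FPKM over the OE libraries and 1500, 226 and 318 over the Ctrl libraries. The muscle markers therefore had the same split, and so had the sums of cartilage, osteocytes and the 6 osteoblast markers above 0 in every library. The part of any of these in the level of Rpl3l was not tested.

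Rpl39l, the copy of Rpl39 that is best known from testis, was at 6.46, 6.92 and 4.19 FPKM over the OE libraries and at 7.58, 1.5 and 1.22 over the Ctrl libraries. It made up 1.26, 0.948 and 0.645% of its pair in OE and 1.36, 0.264 and 0.268% in Ctrl (exact p = 0.6). The library labelled Ctrl 1 was the highest of all, and Ctrl 2 and Ctrl 3 were the lowest. The log2 difference was 0.89 (SE 0.51, limma adjusted p = 0.564). Cartilage markers summed to 341, 514 and 250.5 FPKM over the OE libraries and to 323, 15.2 and 20.7 over the Ctrl libraries, again with the library labelled Ctrl 1 beside OE. The sums of muscle, osteocytes and the 6 osteoblast markers above 0 in every library had the same split. The part of any of these in the level of Rpl39l was not tested.

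These copies were also the only members called when libraries were left out. Without the library labelled Ctrl 1, limma called 605 of 12017 genes (5.03%), and 525 of them were higher in OE (4.37%). Of the members tested, Rpl39l differed by 1.52 (SE 0.23, limma adjusted p = 0.0187) and Rpl3l by 1.39 (SE 0.21, limma adjusted p = 0.0190). The library labelled Ctrl 1 had been singled out for its OE-like Wnt7b, and it lay within or above the OE range in both copies. Leaving it out was therefore bound to widen both differences, and these calls are a description. With OE 3 dropped as well, which left 2 libraries a group, 954 of 11474 genes were called (8.31%) and 623 of them were higher in OE (5.43%), with Rpl39l at 1.71 (limma adjusted p = 0.00152) and Rpl3l at 1.27 (limma adjusted p = 0.00871). No core gene was called in either comparison. With the library labelled Ctrl 1 included, neither copy passed.

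**Figure D5:**
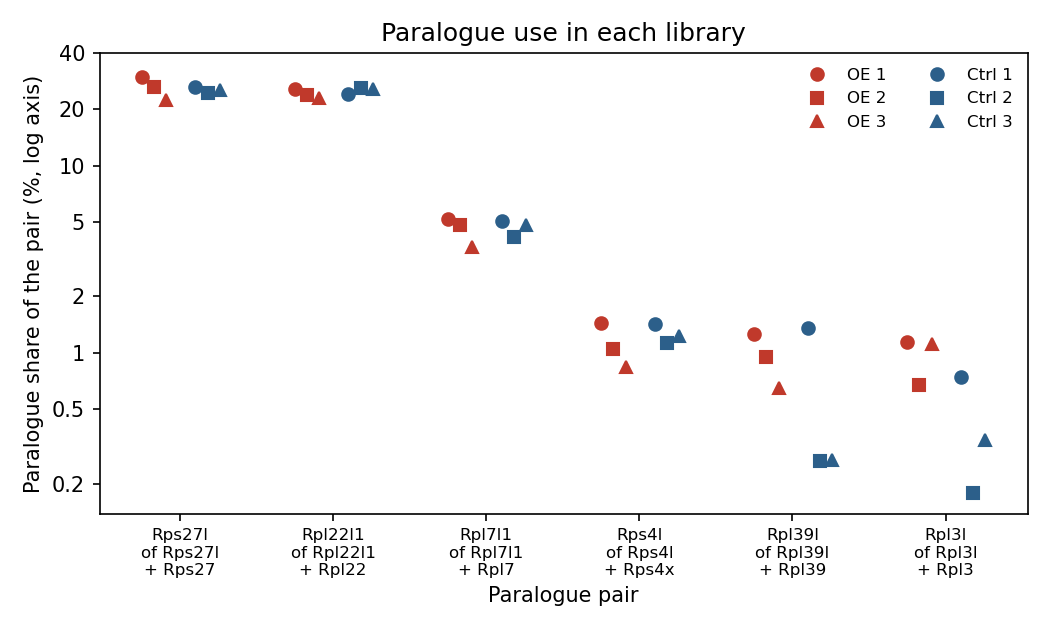
Share of the copy in the FPKM of copy and parent together (percent, y axis, log scale) for each of 6 paralogue pairs, with each library as a point. Rps27l and Rpl22l1 lie between 22.5 and 29.7% in every library, and Rpl3l and Rpl39l at 1.36% or less, with Ctrl 2 and Ctrl 3 lowest.

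Ribosomal proteins with other kinds of names did not pass the test either. Fau, whose product is cleaved to give a small-subunit protein, was at 1162, 1905 and 1460 FPKM over the OE libraries and at 1771, 1839 and 1233 over the Ctrl libraries (log2 difference −0.10, SE 0.29, limma adjusted p = 0.910). Rpl36al, a retained copy of Rpl36a, differed by −0.04 (SE 0.25, limma adjusted p = 0.970). The groups overlapped in both. Rpl36al made up 36.2 to 43.1% of its pair with Rpl36a over the 6 libraries.

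Genes that act with the ribosome were compared as lists, and none of their members was called in either direction by limma (all genes 0.00%). Of 38 translation factors, 8 differences were positive, with a median of −0.16 beside −0.04 over all genes, and 7 had all OE libraries below all Ctrl libraries (all genes 8.97%). The smallest p-values belonged to Eif4h, a helper of the Eif4a helicase, at −0.39 (SE 0.17), and Eif3c, a subunit of the initiation factor that binds the small subunit, at −0.33 (SE 0.15). Of 39 ribosome assembly factors tested, 3 differences were positive, with a median of −0.16, and 3 genes had all OE libraries below. Nmd3, the adaptor that exports the large subunit from the nucleus, was at 3.26, 3.16 and 1.99 FPKM over the OE libraries and at 5.62, 4.51 and 5.12 over the Ctrl libraries (−0.69, SE 0.19, limma adjusted p = 0.554). All OE libraries were below all Ctrl libraries in Nmd3. Rrs1, needed for assembly of the large subunit, differed by −0.33 (SE 0.15).

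RNA polymerase I makes the ribosomal RNA. Of its 17 listed subunits and regulators, 4 differences were positive, with a median of −0.14 beside −0.04 over all genes. All OE libraries were below all Ctrl libraries in 5 genes (all genes 8.97%) and above in 1 (all genes 4.59%). Cd3eap, a polymerase subunit, was at 4.62, 6.04 and 5.0 FPKM over the OE libraries and at 7.89, 9.77 and 8.56 over the Ctrl libraries (−0.65, SE 0.15, limma adjusted p = 0.554). Polr1a, the largest subunit, differed by −0.34 (SE 0.12). Neither gene overlapped between the groups, and neither passed. Of 20 tested genes of the mTORC1 pathway, 9 differences were positive, with a median of −0.04. Rragd, a Rag GTPase that brings mTORC1 to the lysosome, differed by 0.53 (SE 0.22), and Mlst8, a subunit of the complex, by −0.39 (SE 0.20), with adjusted p-values of 0.554 and 0.561 in limma.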

How the data were processed

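Per the file headers, the authors deposited FPKM per gene for each library, with no counts. The tools named in the submitters' processing notes are TopHat2, Cufflinks and DESeq, with build mm10. The sources used here give neither their roles and versions, nor whether strand was used, nor how reads that match several similar genes were counted. Because FPKM is relative to the library, a few abundant genes lower all others, and absolute depth is unknown.

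Of 22824 rows, 21606 carried an Ensembl identifier, and 21172 of these matched a GENCODE M21 symbol (GRCm38). The other 1218 rows are unannotated transcripts. Groups came from the sample titles. Genes at 1 FPKM or more in at least 3 libraries (12177) were tested on log2(FPKM + 1) with limma 3.58.1 (lmFit, eBayes with trend) in R 4.3.3, with Benjamini-Hochberg adjustment over all of them and a threshold of 0.05. Adding 1 understates changes of low genes. The fit was first run on simulated data with independent noise for each gene. Those data lack the spread that genes of a library share, so that run does not bear on the count of 0 genes called. Paralogue shares were compared by exact permutation tests. Other values and the plots were made in Python 3.11.15 (scipy 1.17.1, pandas 2.3.3, numpy 2.4.6, matplotlib 3.10.9). Coding lengths are those of the longest annotated coding sequence of each gene.

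The members and lists were chosen with earlier results of these data known. Genes named are the paralogue pairs, the 5 highest and 5 lowest single-copy members, the 4 largest differences in each direction, members past the threshold, members chosen by role, and the 2 smallest p-values in each related list. Alternatives were scaling without marrow and muscle markers, trimmed-mean scaling, no filter, a filter of 5 FPKM, a pseudocount of 0.1, limma without trend, leaving out libraries, and a block for the replicate number. The values of 1 member are not reported here singly, and the plots by gene name leave it out. Centring on the ribosomal protein median was added after seeing the data.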

Additional observations from a re-analysis of the deposited data

How the results depend on the processing

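The count of 0 genes called held in all settings but 3: it was 5 with no filter, none of them a member, 0 to 605 with 1 library left out, the highest without the library labelled Ctrl 1, and 954 when the library labelled Ctrl 1 and OE 3 were both dropped. Members called numbered 0 to 2 and 2 in the last 2 settings. The 1 member that did not overlap in FPKM (all tested genes 13.6%) became 10 of 81 with scaling without marrow and muscle markers (12.3%, all genes 13.04%). It became 42 with centring on the ribosomal protein median (51.9%, all genes 6.04%), where the reference came from the members themselves. It became 3 with both of those libraries dropped (3.70%, all genes 49.2%) and 1 to 16 with 1 library left out (1.23 to 19.8%, all genes 15.4 to 36.5%), the highest without OE 1, where the share of all genes was 18.3%. The cause of these changes was not tested, beyond that fewer libraries make a lack of overlap easier to reach.

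The median difference of the members was −0.18 to 0.10 with 1 library left out. Differences near 0 changed sign. Rpl22l1 was at 0.016 with trimmed-mean scaling, 0.054 with scaling without marrow and muscle markers and 0.037 with centring on the ribosomal protein median, and Rplp2 at 0.0080, 0.046 and 0.029. Rpl12 was at 0.0047 with scaling without marrow and muscle markers. With the library labelled Ctrl 1 and OE 3 dropped, Rpl7l1 was at 0.026, its share differed by 0.516 percentage points and that of Rps4l by 0.0721. With 1 library left out, the log2 differences ran from −0.23 to 0.079 for Rpl12, −0.16 to 0.076 for Rpl22l1, −0.23 to 0.0076 for Rpl7, −0.15 to 0.10 for Rplp2 and −0.24 to 0.018 for Rps4x. They ran from −0.068 to 0.20 for Rpl15, −0.051 to 0.25 for Rpl21, −0.10 to 0.21 for Rpl22, −0.11 to 0.21 for Rps20 and −0.093 to 0.32 for Rps27. For Rps27l they ran from −0.044 to 0.24, for Rplp1 from −0.032 to 0.36 and for Rps12 from −0.0094 to 0.32. The shares of Rps27l and Rpl7l1 differed by −1.05 to 2.56 and −0.420 to 0.333 percentage points.

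Whether the replicate numbers pair the libraries is not stated in the labels. Deviations of same-numbered libraries correlated at 0.44, 0.09 and 0.31. OE 1 and OE 2 correlated best with the library labelled Ctrl 1 (0.44 and 0.14), and OE 3 with Ctrl 2 (0.42). So few correlations cannot decide whether the libraries are paired. With the replicate block in limma 0 genes were called, and the median of the members stayed at −0.04. At an unadjusted limma p under 0.05 there were 1797 genes (14.8%) with the block and 999 (8.20%) without it. Absolute depth is unknown, so no counting error could be given for low copies such as Rpl3l and Rpl39l.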

Other observations

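Of 10 retrotransposed or pseudogene copies that the rule leaves out and that were tested, 3 differences were positive and 7 negative, and reads shared with their parents make their values uncertain. Rps12-ps3, annotated as protein-coding in GENCODE M21, was at 174, 257 and 232 FPKM over the OE libraries and at 124, 172 and 108 over the Ctrl libraries, with a log2 difference of 0.72 (SE 0.24, limma adjusted p = 0.554). All OE libraries were above all Ctrl libraries. Rps27rt, a retrotransposed copy of Rps27, was at 812, 1178 and 1122 FPKM over the OE libraries and at 772, 871 and 602 over the Ctrl libraries (0.47, SE 0.25, limma adjusted p = 0.561). The lowest OE library was below Ctrl 2 in that copy. Rpl23a-ps3 was at 4.17, 6.74 and 5.50 FPKM over the OE libraries and at 2.61, 2.65 and 1.71 over the Ctrl libraries (0.95, SE 0.21, limma adjusted p = 0.554). In the other direction, Rpl9-ps6 was at 1.09, 2.05 and 1.89 FPKM over the OE libraries and at 3.06, 2.66 and 2.69 over the Ctrl libraries (−0.52, SE 0.19, limma adjusted p = 0.554), with all OE libraries below. The other 6 copies differed by −0.13 to −0.30. The named genes were picked on these values.

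Relative to the median core gene, Rps12-ps3 was at −2.19, −2.18 and −2.07 in OE and −3.08, −2.78 and −2.96 in Ctrl, a wider gap than that of Rps12 itself, at 1.21, 1.27 and 1.25 in OE and 1.10, 0.99 and 0.93 in Ctrl. Rps27rt was at 0.03, 0.02 and 0.21 in OE and −0.44, −0.44 and −0.48 in Ctrl, while Rps27 overlapped between the groups.

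Chromosome 7 holds 14 of the 78 core genes, more than any other chromosome. The 4 genes with the most negative differences between OE and Ctrl in relative level, Rpl28, Rps19, Rps9 and Rps3, all lie on it, and so do Rps15a and Rpl27a, which were relatively higher in OE. Without overlap between the groups, 3 of the 14 were relatively higher and 4 relatively lower, beside 26 and 16 of all 78 core genes. No test was made of the position of these genes.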
